A study of Homo sapiens with 6 samples.

Results

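EPH receptors and ephrins form a cell-contact signalling system, and the transcripts of 10 of its genes were compared between parental LNCaP cells and an enzalutamide-resistant derivative, LNCaP-enzaR. The genes were taken by symbol from the deposited gene table: the receptors EPHA1, EPHA2, EPHA3, EPHA7, EPHB3 and EPHB4 and the ligands EFNA1, EFNA4, EFNB1 and EFNB2, which are 10 of the 35554 genes in the table and 10 of its 22 EPH and ephrin genes. LNCaP is an established, androgen-responsive line from a metastatic prostate carcinoma. Per the study's methods, LNCaP-enzaR was derived from it by continuous culture with enzalutamide, a drug that blocks androgen signalling, and was then kept on a lower concentration of the drug. Per the labels, cells of each line were plated in 3 flasks and harvested before confluence, and no genetic modification of either line is given. Presence of the drug during the last culture is not stated. LNCaP-enzaR is 1 selected line, so that selection history and drug exposure cannot be told apart, and p-values measure the spread between flasks.

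EPH receptors are the largest family of receptor tyrosine kinases, and their ligands are themselves anchored in the membrane of the neighbouring cell, so that contact starts a forward signal in the receptor-bearing cell and a reverse signal in the ligand-bearing cell. Ephrin-A proteins are held by a glycolipid anchor and bind mainly EPHA receptors, whereas ephrin-B proteins span the membrane and bind mainly EPHB receptors. The signals act on the cytoskeleton through small GTPases and guide repulsion, adhesion and the sorting of cells at boundaries. In epithelial tumours, the family is known both for restraining and for promoting invasion, depending on the member and on whether ligand is engaged.

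The 6 libraries held 77759122 to 98616465 counts, with no difference between the lines beyond the spread (two-sided exact permutation test, p = 0.60, where 0.10 is the smallest p that 3 against 3 can give). Transcripts of the mitochondrial genome took 6.72% to 7.06% of the counts in parental cells and 14.8% to 15.5% in LNCaP-enzaR (exact permutation p = 0.10). Leaving them out before scaling moved the log2 fold change of each of the 10 genes by at most 0.0043. The cells carried the markers of prostate luminal epithelium, with a summed level of 5171 to 5292 CPM (counts scaled to 1000000 per library) in parental and 4846 to 4982 CPM in LNCaP-enzaR libraries over 9 genes, of which 2 rose and 4 fell. Basal markers (KRT5, KRT14, TP63) summed to 0.923 to 1.71 against 0.433 to 0.800 CPM, with KRT5 and TP63 at 0 in each parental library and at most 2 counts in LNCaP-enzaR. The 5 fibroblast markers found summed to 14.1 to 17.3 against 6.73 to 7.24 CPM, most of it COL1A1, which fell. Against that sum, LUM rose from 30 to 47 counts per parental library to 107 to 170 in LNCaP-enzaR, DCN held at most 1 and then 2 to 20 counts, and PDGFRA was at 0 in each parental library and held at most 7 counts in LNCaP-enzaR. Endothelial markers summed to 5.47 to 6.10 against 3.93 to 4.35 CPM, nearly all VWF, with CDH5 at 0 in each parental library and at most 3 counts in LNCaP-enzaR. The 3 leukocyte markers held at most 13 counts in any library, with CD3E at 0 in each parental library and at most 1 count in LNCaP-enzaR. The part of these markers in the results below was not tested, and in bulk RNA fewer cells of a type and less RNA per cell cannot be told apart.

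The largest differences were decreases. Of the 10 genes, all of which were tested, 4 fell in LNCaP-enzaR (EPHA3, EPHA7, EPHB4 and EFNB2) and 2 rose (EPHA1 and EFNA1), with calls made at 1.5-fold or more and an adjusted p no higher than 0.05 (edgeR quasi-likelihood test, Benjamini-Hochberg adjusted over the 19711 genes tested). Over all genes tested, 19.5% were lower and 23.3% higher by the same rule, so that 2 of 10 higher lies near the background, 4 of 10 lower lies above it, and neither share was tested. The median log2 fold change (LNCaP-enzaR over parental) was -0.10 over the 10 genes and 0.01 over all genes tested. The 3 libraries of one line did not overlap those of the other for 8 of the 10 genes, against 70.6% of all genes tested. EFNB1, EPHB3, EPHA2 and EFNA4 were not past the threshold. Counts of the 10 genes ran from 19 to 11022 per library, and the coefficient of variation among replicates was 1.44% to 15.9% apart from EPHA7 in LNCaP-enzaR (36.5%), its counts there being the lowest.

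**Figure D1:**
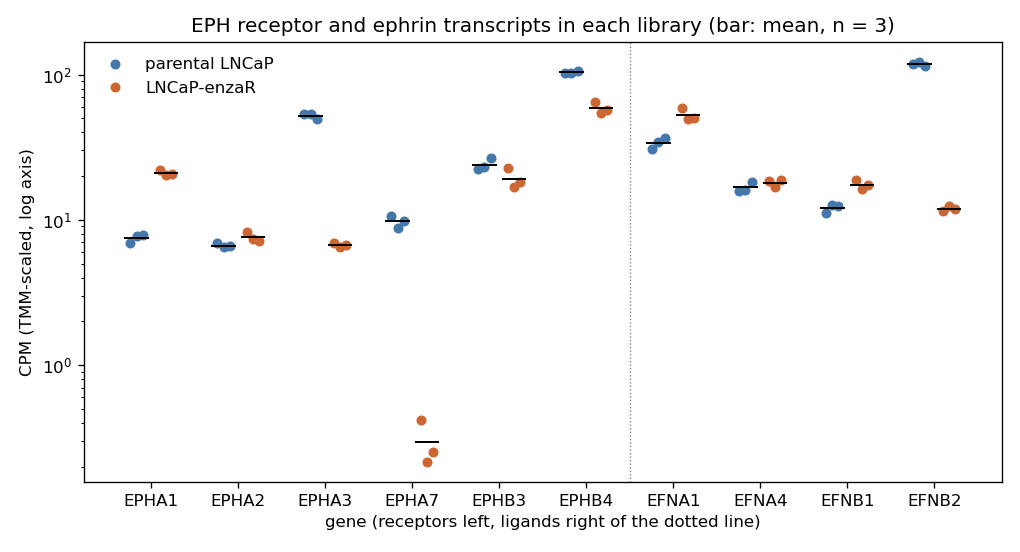
CPM of each gene (log axis) in the 3 parental LNCaP libraries (blue) and the 3 LNCaP-enzaR libraries (orange), with a bar at the mean of each line. EFNB2 lies at 115 to 121 CPM in parental cells and 11.6 to 12.4 CPM in LNCaP-enzaR, whereas the points of EFNA4 and of EPHB3 overlap between the lines.

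Among the ligands, EFNB2 fell the most. It encodes ephrin-B2, a transmembrane ligand known for marking arterial endothelium and for its pairing with EPHB4. The gene (ENSG00000125266.8, chromosome 13, 106489745 to 106535662, minus strand, GRCh38) was at 118, 121 and 115 CPM in parental replicates 1 to 3 and at 11.6, 12.4 and 11.8 CPM in LNCaP-enzaR replicates 1 to 3. All parental libraries were far above all LNCaP-enzaR libraries. The means of 118 ± 3.10 and 11.9 ± 0.432 CPM (SD, n = 3 each) differed by -3.31 on the log2 scale (SE 0.064, edgeR adjusted p = 2.63e-14), a level 9.88-fold lower, and 1.83% of the genes tested had a lower log2 fold change. Of its exonic bases, 36.4% lie under exons of an antisense long noncoding RNA, RP11-272L14.3, which held 18 to 50 counts per parental and 1 to 5 per LNCaP-enzaR library. Without a stated strand setting, reads of such partners cannot be told apart.

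EFNA1 encodes ephrin-A1, the best known ligand of EPHA2, and it rose. The gene (ENSG00000169242.12, chromosome 1, 155127876 to 155134899, plus strand) was at 30.6, 34.2 and 36.5 CPM in the parental libraries and at 58.6, 49.3 and 50.1 CPM in LNCaP-enzaR. The lowest LNCaP-enzaR value lay above the highest parental value. Its log2 fold change was 0.64 (SE 0.083, edgeR adjusted p = 8.64e-06), which is 1.56-fold and close to the limit of 1.5. Leaving out parental replicate 1 (0.57) or LNCaP-enzaR replicate 1 (0.56) put it short of that limit, so that 1 library in either line decides the call.

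The other ligands among the 10 changed less. EFNB1, an X-linked ephrin-B whose loss causes craniofrontonasal syndrome (ENSG00000090776.6, chromosome X, 68829021 to 68842160, plus strand), was at 11.2, 12.6 and 12.5 CPM in parental cells and at 18.8, 16.3 and 17.3 CPM in LNCaP-enzaR. These groups did not overlap, and the log2 fold change of 0.53 (95% interval 0.35 to 0.71, edgeR adjusted p = 5.95e-05) was short of 1.5-fold. With upper-quartile scaling it was 0.63 and past the limit. EFNA4, an ephrin-A (ENSG00000243364.8, chromosome 1, 155063737 to 155069553, plus strand), was at 15.8, 16.1 and 18.2 CPM in parental cells and at 18.6, 16.8 and 18.7 CPM in LNCaP-enzaR. Its groups overlapped, with a log2 fold change of 0.11 (95% interval -0.06 to 0.29, edgeR adjusted p = 0.237). Of the exonic bases of EFNA4, 15.0% are shared with the readthrough gene EFNA4-EFNA3, which itself held at most 1 count per library.

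EPHA7 and EPHA3 showed the steepest decreases among the receptors. EPHA7, a receptor known from axon guidance in the developing brain (ENSG00000135333.15, chromosome 6, 93240020 to 93419687, minus strand), was at 10.7, 8.82 and 9.87 CPM in parental cells and at 0.417, 0.215 and 0.252 CPM in LNCaP-enzaR. It went from 775 to 986 counts per parental library to 19 to 36 counts per LNCaP-enzaR library, all above the 3 counts taken as the floor of detection. The log2 fold change was -5.06 (SE 0.184, edgeR adjusted p = 1.26e-11) and ranged from -5.37 to -4.88 when 1 library was left out. Only 0.751% of the genes tested had a lower log2 fold change. EPHA3, a receptor with high affinity for ephrin-A5 (ENSG00000044524.11, chromosome 3, 89107621 to 89482134, plus strand), was at 53.4, 53.1 and 49.7 CPM in parental cells and at 6.98, 6.53 and 6.67 CPM in LNCaP-enzaR. The replicates of each line lay close together and far from those of the other line. Its log2 fold change was -2.95 (SE 0.072, edgeR adjusted p = 2.52e-13), 7.74-fold lower.

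EPHA1 was the receptor among the 10 that rose. EPHA1, the first EPH receptor to be cloned (ENSG00000146904.9, chromosome 7, 143390289 to 143408856, minus strand), was at 6.89, 7.75 and 7.85 CPM in parental cells and at 21.9, 20.2 and 20.7 CPM in LNCaP-enzaR. Every LNCaP-enzaR library was above every parental library. The log2 fold change was 1.48 (SE 0.082, edgeR adjusted p = 1e-09), 2.80-fold higher. EPHA2, the receptor most studied in epithelial cancers (ENSG00000142627.13, chromosome 1, 16124337 to 16156069, minus strand), was at 6.88, 6.46 and 6.56 CPM in parental cells and at 8.30, 7.42 and 7.20 CPM in LNCaP-enzaR. Although its groups did not overlap, the log2 fold change of 0.20 (95% interval -0.0032 to 0.41, edgeR adjusted p = 0.0768) was not past the threshold. Its upper bound lay below the 1.5-fold limit.

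EPHB4 and EPHB3 bind ephrin-B ligands, EPHB4 with a strong preference for ephrin-B2. EPHB4 (ENSG00000196411.10, chromosome 7, 100802565 to 100827523, minus strand) was at 103, 102 and 105 CPM in parental cells and at 64.9, 54.2 and 57.3 CPM in LNCaP-enzaR. The LNCaP-enzaR values were all lower and more spread than the parental ones. Its log2 fold change was -0.81 (SE 0.068, edgeR adjusted p = 8.57e-08), 1.76-fold lower. EPHB3, known for positioning cells in the intestinal crypt (ENSG00000182580.3, chromosome 3, 184561785 to 184582408, plus strand), was at 22.3, 23.0 and 26.6 CPM in parental cells and at 22.6, 16.7 and 18.2 CPM in LNCaP-enzaR. LNCaP-enzaR replicate 1 fell within the parental range. The log2 fold change of -0.32 (95% interval -0.55 to -0.10, edgeR adjusted p = 0.0148) was short of 1.5-fold, and it ranged from -0.44 without LNCaP-enzaR replicate 1 to -0.22 with upper-quartile scaling.

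LNCaP-enzaR replicate 1 was the highest library of its line for 8 of the 10 genes and LNCaP-enzaR replicate 2 the lowest for 8, against 40.2% and 34.0% of all genes tested. The part of these libraries in the values above was not tested beyond leaving each out in turn.

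The bases before the start site are shown for both genes that rose and for the A-class receptor and the B-class ligand that fell and whose window holds no annotated exon, so that promoters of genes that moved in opposite directions can be set side by side. Each line gives the 250 bases upstream of the RefSeq start (GRCh38.p14), read in the direction of transcription, with capitals marking the GC box GGGCGG or its reverse complement CCGCCC, the element that SP1-type factors are known to bind. The windows are chr13:106535663-106535912 (minus strand) for EFNB2, chr3:89107371-89107620 (plus strand) for EPHA3, chr7:143408857-143409106 (minus strand) for EPHA1 and chr1:155127626-155127875 (plus strand) for EFNA1.
EFNB2: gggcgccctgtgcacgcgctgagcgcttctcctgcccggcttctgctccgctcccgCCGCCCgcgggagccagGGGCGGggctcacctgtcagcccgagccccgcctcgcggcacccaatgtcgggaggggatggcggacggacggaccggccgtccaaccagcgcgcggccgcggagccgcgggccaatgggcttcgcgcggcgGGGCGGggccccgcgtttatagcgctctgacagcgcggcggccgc
EPHA3: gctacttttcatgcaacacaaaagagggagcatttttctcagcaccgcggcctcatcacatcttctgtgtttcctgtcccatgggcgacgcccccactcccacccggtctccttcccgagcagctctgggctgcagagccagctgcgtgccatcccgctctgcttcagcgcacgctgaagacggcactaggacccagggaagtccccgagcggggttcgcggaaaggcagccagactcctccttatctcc
EPHA1: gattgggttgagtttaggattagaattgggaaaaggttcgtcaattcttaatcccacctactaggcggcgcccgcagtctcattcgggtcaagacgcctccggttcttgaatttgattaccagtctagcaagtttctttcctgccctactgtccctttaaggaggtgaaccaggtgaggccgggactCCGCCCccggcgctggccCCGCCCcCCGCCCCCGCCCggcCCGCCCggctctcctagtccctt
EFNA1: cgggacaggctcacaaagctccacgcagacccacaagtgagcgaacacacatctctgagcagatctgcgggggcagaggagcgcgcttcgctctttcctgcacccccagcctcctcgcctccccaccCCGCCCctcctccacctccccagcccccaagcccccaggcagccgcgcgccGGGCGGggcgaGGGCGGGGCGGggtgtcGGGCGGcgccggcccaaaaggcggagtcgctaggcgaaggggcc

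All 10 genes were matched to a RefSeq window, and at the same windows 9 of them, all but EPHA3, held a GC box on either strand, against 42.6% of 35116 windows of the same length. GC content ran from 58.4% to 78.4% (median of all windows 58.0%) and the number of CpG dinucleotides from 15 to 40 (median of all windows 11). EFNB2 held the most CpG dinucleotides, 40, more than 97.8% of all windows. It was also the gene with the TATA-box hexamer on either strand (TATAAA or TTTATA, in 10.7% of all windows). Read in the direction of transcription, the EFNB2 window holds TTTATA, the reverse complement, and not TATAAA. The hexamer AGAACA or TGTTCT, a part of the androgen response element, was in 0 of the 10 windows and in 12.4% of all windows, and CCAAT or ATTGG was in 7 of the 10 and in 32.0% of all windows. Among the windows shown, GC content was 78.4% for EFNB2 and 61.2% for EPHA3, which fell. It was 59.2% for EPHA1 and 73.2% for EFNA1, which rose, so that EPHA3 and EPHA1 lay close to the median. EPHA3 held 15 CpG dinucleotides, EPHA1 17 and EFNA1 24. None of the searched motifs contains another.

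The 12 family genes outside the 10 were described by the same fit. Changes went both ways there too, and 10 were tested. Of these, 5 rose (EPHB1, EFNB3, EPHA10, EFNA3 and EFNA2), 2 fell (EPHA5 and EFNA5) and 3 were not past the threshold (EPHA6, EPHB2 and EPHB6). Shares over all genes tested were 23.3% higher and 19.5% lower. The 2 of 10 lower lie near that background, the 5 of 10 higher lie above it, and neither share was tested. EFNA5, the most abundant family transcript in parental cells, was at 269, 264 and 260 CPM there and at 103, 113 and 107 CPM in LNCaP-enzaR. Its log2 fold change was -1.30 (SE 0.055, edgeR adjusted p = 5.44e-11). EPHA5, a neuronal receptor for ephrin-A ligands, fell from 522 to 617 counts per library to 4 to 16, which is -6.05 on the log2 scale (SE 0.253, edgeR adjusted p = 5.21e-11). It was -6.77 without LNCaP-enzaR replicate 2 and -5.64 without LNCaP-enzaR replicate 3, and 5.44% of its exonic bases lie under an antisense gene.

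EFNB3, the third ephrin-B ligand, was at 4.75, 4.53 and 4.90 CPM in parental cells and at 24.2, 21.4 and 22.4 CPM in LNCaP-enzaR (log2 fold change 2.26, SE 0.085, edgeR adjusted p = 1.69e-11). Thus EFNB2 fell while both other ephrin-B genes had higher values. EFNA3 (log2 fold change 1.60, from 14.2 ± 1.42 to 43.1 ± 3.31 CPM) lies between EFNA4 and EFNA1 on chromosome 1 and shares 43.9% of its exonic bases with the readthrough gene. EPHA10, whose kinase domain lacks activity, rose from 9.27 ± 0.839 to 35.1 ± 3.64 CPM (log2 fold change 1.92).

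EPHB1 was at 0 to 1 counts in parental libraries and at 184 to 217 in LNCaP-enzaR libraries, which is at least 65.5-fold higher when 3 counts per library are taken for the parental cells. EFNA2 stayed below 1 CPM (0.458 ± 0.074 to 0.805 ± 0.125 CPM, 0.81 on the log2 scale, edgeR adjusted p = 0.0173) and lost its call without parental replicate 3 (adjusted p = 0.0638) or without LNCaP-enzaR replicate 1 (0.0786). EPHA6, at 0.58, sat at the edge of 1.5-fold and passed it in 8 of 15 alternatives. EPHB2 was at 19.4 ± 0.736 and 19.4 ± 0.806 CPM, a log2 fold change of -0.0037 whose sign changed with the scaling, and its 95% interval was -0.16 to 0.15. EPHB6, which also lacks kinase activity, was at 1.56 ± 0.252 and 1.98 ± 0.190 CPM (log2 fold change 0.35, edgeR adjusted p = 0.101). EPHA4 (at most 3 counts per parental library, and 0 in the resistant line) and EPHA8 (at most 8 counts in any library) did not pass the filter on low counts.

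**Figure D2:**
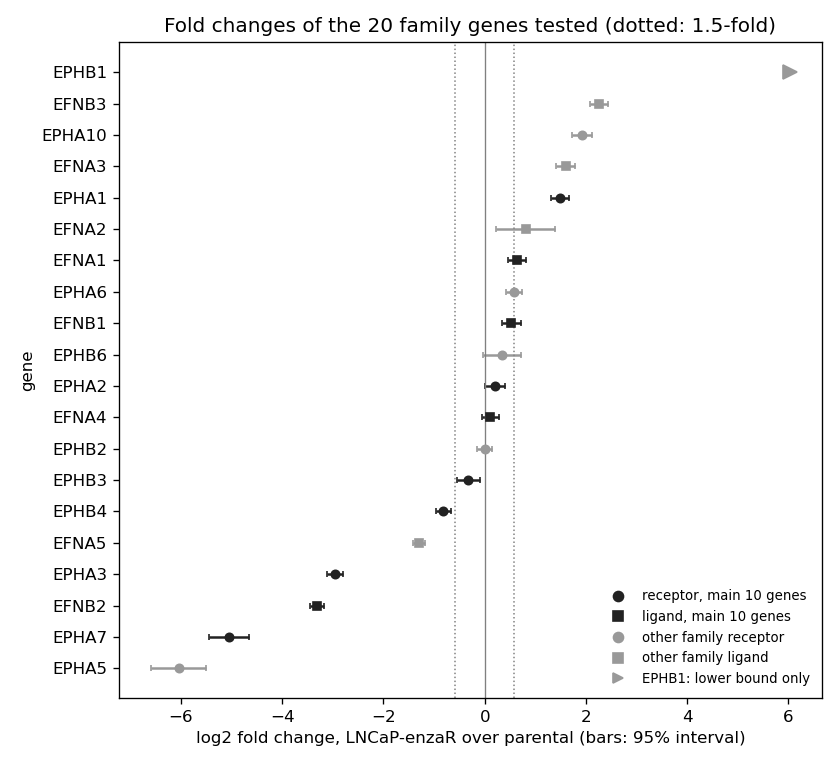
Log2 fold change (LNCaP-enzaR over parental, x axis) of the 20 family genes tested, with 95% intervals. The 10 genes of the report are in black and the others in grey, circles are receptors and squares ligands, and EPHB1 is drawn as a lower bound (arrowhead) at 65.5-fold. The family spreads from -6.05 (EPHA5) upwards, with EPHA7, EFNB2 and EPHA3 next to EPHA5 at the low end.

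Levels of different genes can be compared only per length, and were therefore expressed as RPKM, the TMM-scaled CPM per kilobase of all annotated exons (GENCODE v44). In parental cells, EFNA5 (46.1 ± 0.780 RPKM) was followed by EFNB2 (23.6 ± 0.619), EPHB4 (16.1 ± 0.231), EFNA1 (15.6 ± 1.36) and EFNA4 (13.3 ± 1.04). EPHB4 and EFNA1 overlapped between libraries, as did EFNA1 and EFNA4, and so did EPHA3 (7.92 ± 0.310) and EFNA3 (7.31 ± 0.729). Then came EPHB3 (5.29 ± 0.512) and EFNB1 (3.67 ± 0.241), while EPHA2 (1.60 ± 0.053) and EPHA1 (1.60 ± 0.112) could not be ranked against each other. EPHA7 (0.594 ± 0.056 RPKM) was the lowest of the 10. The exons of EPHA7 add up to 16460 bases over all its isoforms, so that its RPKM is a low estimate if shorter isoforms are used. The lengths of EFNA3 and EFNA4 include 43.9% and 15.0% of bases shared with the readthrough gene, which held at most 1 count per library. If reads in shared bases were left uncounted, which is not stated, the RPKM of both are low estimates and their places are uncertain.

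In LNCaP-enzaR the order by RPKM was different. By full exon length, EFNA1 (24.3 ± 2.39 RPKM) and EFNA3 (22.2 ± 1.70) came first and overlapped. They were followed by EFNA5 (18.8 ± 0.849), EFNA4 (14.4 ± 0.855) and EPHB4 (9.13 ± 0.854). The values of EFNA3 and EFNA4 may be low estimates, as stated above, so that the order of EFNA1 and EFNA3 is uncertain. EFNB2 went from rank 2 to rank 11 of 22 (2.39 ± 0.086 RPKM), below EFNB1 (5.29 ± 0.372), EPHA1 (4.46 ± 0.187) and EPHB3 (4.23 ± 0.671). EPHA3 went from rank 6 to rank 15 (1.02 ± 0.034 RPKM). EPHA2 (1.84 ± 0.141 RPKM) was at rank 12, after rank 10 in parental cells, and its libraries overlapped those of EPHA6. EPHA7 (0.018 ± 0.0065 RPKM) overlapped EPHA5 near the floor.

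Within libraries, the ratio of EFNB2 to its receptor EPHB4 per length was 1.47, 1.53 and 1.41 in parental cells and 0.230, 0.295 and 0.265 in LNCaP-enzaR. By this measure, the ligand was the more abundant transcript of the pair in the parental line and the less abundant one in LNCaP-enzaR. The ratio rests on exon lengths over all isoforms, 5005 bases for EFNB2 and 6437 for EPHB4. Which isoforms were used was not determined, and the parental ratio would differ with other lengths. EFNB2 exceeded EFNB1 by a ratio of 6.06 to 6.95 in parental libraries and was below it, at 0.408 to 0.502, in LNCaP-enzaR libraries. The ratio of EFNA1 to EPHA2 was 8.51 to 10.6 in parental and 12.7 to 13.5 in LNCaP-enzaR libraries, and that of EPHA1 to EPHA2 was 0.883 to 1.06 and 2.33 to 2.54. For each of the 4 ratios, the libraries of the lines did not overlap, and these ratios were not tested.

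Summed over the class, the ephrin-B transcripts of the family (3 genes) went from 28.7 ± 0.634 to 14.7 ± 0.741 RPKM, although 1 gene fell and the others had higher values. By full exon length, the ephrin-A transcripts (5 genes) were at 82.5 ± 2.20 and 79.9 ± 3.65 RPKM, and the libraries of the lines overlapped. EFNA5 fell, while EFNA1 and EFNA3 rose. Since the RPKM of EFNA3 and EFNA4 may be low estimates, whether the ephrin-A sum differs between the lines cannot be read from these values. Summed EPHB receptors (5 genes) went from 23.2 ± 0.745 to 15.7 ± 1.59 RPKM, mostly through EPHB4. EPHA receptors (9 genes) were at 14.6 ± 0.170 and 13.3 ± 0.739 RPKM. The 4 EPHA receptors among the 10 went from 11.7 ± 0.258 to 7.35 ± 0.359 RPKM.

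**Figure D3:**
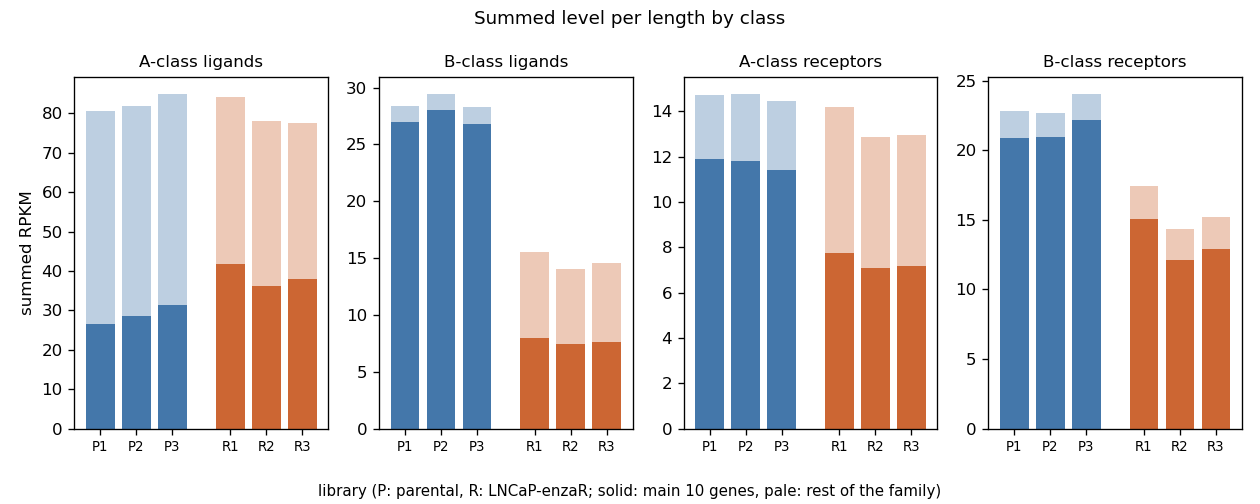
Summed RPKM (y axis, from 0, with its own scale in each panel) of A-class and B-class ligands and receptors in each parental (P1 to P3, blue) and LNCaP-enzaR library (R1 to R3, orange). Solid bars are the 10 genes of the report and pale bars the remaining family genes. The B-class ligands drop from 28.7 to 14.7 RPKM on average. The sum of the A-class ligands, by full exon length, overlaps between the lines, and it may be a low estimate because of EFNA3 and EFNA4.

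EFNA4 and EFNA1 lie close together on chromosome 1 with EFNA3 between them, and the other genes lie apart. For each gene, the 5 nearest tested genes on either side were read from the same fit. By the same rule, 23.3% of all genes tested were higher and 19.5% lower, and no neighbour count was tested against these shares. Around EFNB2, 5 of 10 neighbours were lower and 0 higher (median log2 fold change -0.64). The lowest was the overlapping antisense RNA (-3.18), whose reads cannot be told apart from those of EFNB2 without a stated strand setting. The nearest gene on the other side, ERCC5, was at 0.08 and lies 3614 kb away. Around EPHA3, 4 were lower and 1 higher (median -0.33, range -3.68 to 0.80). The nearest were C3orf38 at -0.0051 (939 kb away) and PROS1 at 0.80 (4391 kb away). Around EPHA7, 1 was lower and 3 higher (median -0.0029), with MAP3K7 at -0.46 and the long noncoding RNA MANEA-DT at 1.36. The tested neighbours of EPHA7 thus did not share its decrease as a group, but MAP3K7 lies 2653 kb and MANEA-DT 2155.5 kb away from it.

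Around EPHB4, 1 of 10 neighbours was lower and 0 higher, with POP7 at -0.41 and SLC12A9, whose exons overlap 1.07% of those of EPHB4, at 0.45. Around EPHA1, 4 were higher and 2 lower (median 0.27, range -1.26 to 7.57). Its nearest neighbours were ZYX, which encodes the adhesion protein zyxin, overlaps 1.75% of the exonic bases of EPHA1 and rose by a log2 fold change of 1.08, and CTAGE15 at -0.07. At EFNA1, 4 neighbours were higher and 0 lower, among them EFNA3 (1.60) and SLC50A1 (0.65). The neighbourhoods of EFNA4 and EFNA1 share genes, and around EFNA4 5 were higher and 0 lower, including ADAM15 (0.85), the nearest on its left, which was named after its values were seen. EPHB3, not past the threshold itself, had 6 higher and 0 lower neighbours (median 0.87). By gene span, EPHA3 (375 kb), EPHA7 (180 kb) and EFNB2 (45.9 kb) are the longest of the 10 and fell. Of the long genes outside the 10, EPHA5 (351 kb) and EFNA5 (294 kb) fell, EPHB1 (465 kb) was higher, and EPHA6 (938 kb) and EPHB2 (211 kb) were not past the threshold.

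**Figure D4:**
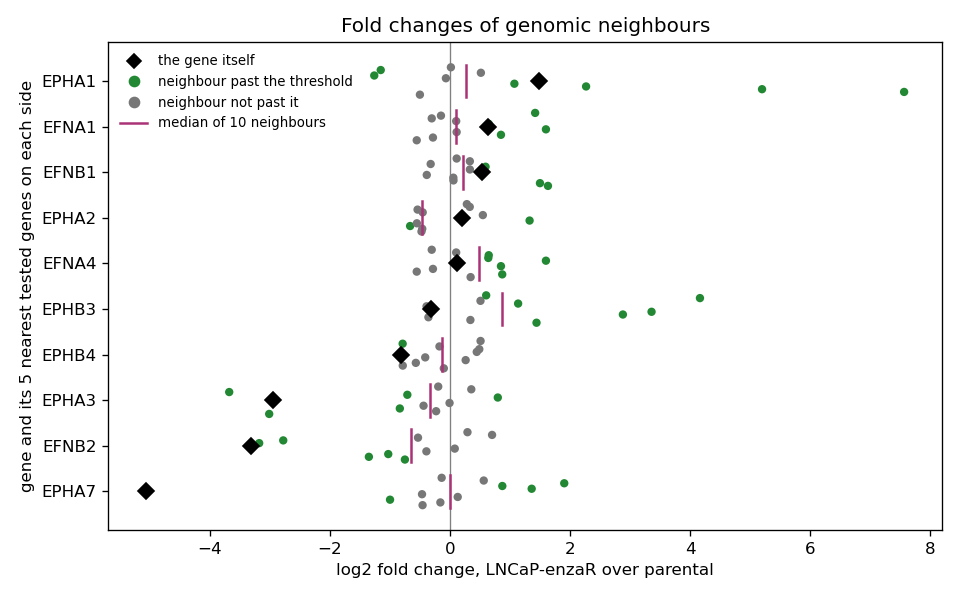
Log2 fold change (x axis) of each of the 10 genes (black diamond) and of the 5 nearest tested genes on either side (circles, green if past the threshold), with the median of the 10 neighbours as a purple line. EPHA7 lies at -5.06, far from its neighbours' median of -0.0029, while around EFNB2 5 of 10 neighbours are lower, against 19.5% of all genes tested.

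Partners of the pathway were read from lists of textbook members. Of 27 genes of forward signalling (exchange factors, adaptors and kinases that act downstream of EPH receptors), 26 were tested. Of these, 5 rose, 6 fell and 15 were not past the threshold, near the 23.3% higher and 19.5% lower of all genes tested. Their median log2 fold change was -0.16, against 0.01 over all genes tested. GRB10, an adaptor of receptor tyrosine kinases, rose from 102 ± 3.95 to 843 ± 16.8 CPM (3 libraries per line, 3.05 on the log2 scale, edgeR adjusted p = 1.48e-14). PAK1, a kinase activated by RAC1 and CDC42, rose from 7.75 ± 0.366 to 38.4 ± 1.39 CPM (2.31). ITSN1, an exchange factor for CDC42, fell from 42.2 ± 1.36 to 18.1 ± 1.10 CPM (-1.22). Among the remaining genes, given for their roles, the GTPases RHOA (-0.28), RAC1 (-0.14) and CDC42 (0.10) and the kinases ROCK1 (0.46) and ROCK2 (0.29) were not past the threshold.

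The other calls of the forward list, named after their values were seen, were higher for TIAM1 (2.12), FYN (1.98) and KALRN (1.69) and lower for VAV3 (-2.13), NCK2 (-1.65), CHN1 (-1.49), YES1 (-1.28) and ABL1 (-0.60). TIAM1 and CHN1 stayed below 1 CPM in both lines. The adaptors GRB2 (0.37), CRK (0.0057) and NCK1 (0.04) were not past the threshold.

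Of 8 partners of the ephrin-B tail (reverse signalling), 7 were tested, with 1 higher, 2 lower and a median of -0.16. PTPN13, a phosphatase that binds the tail through a PDZ domain, fell from 65.4 ± 3.80 to 24.4 ± 2.35 CPM (log2 fold change -1.42), and RGS3, a PDZ protein that restrains G protein signalling, fell from 48.2 ± 0.895 to 28.9 ± 2.81 CPM (-0.74). The scaffold GRIP1, named after its values were seen, rose from 0.178 ± 0.091 to 1.42 ± 0.132 CPM (2.96). Of 10 genes of turnover and SAM-domain partners, 9 were tested, with 1 higher, 1 lower and a median of -0.03. CBL, a ubiquitin ligase that directs activated receptors to degradation, fell from 36.8 ± 1.85 to 22.3 ± 1.07 CPM (-0.72). ANKS1B (1.40), named after its values were seen, was higher, and the sheddase ADAM10 (0.38) was not past the threshold. Beside these counts stand 23.3% higher and 19.5% lower over all genes tested, and the lists were not tested as sets.

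**Figure D5:**
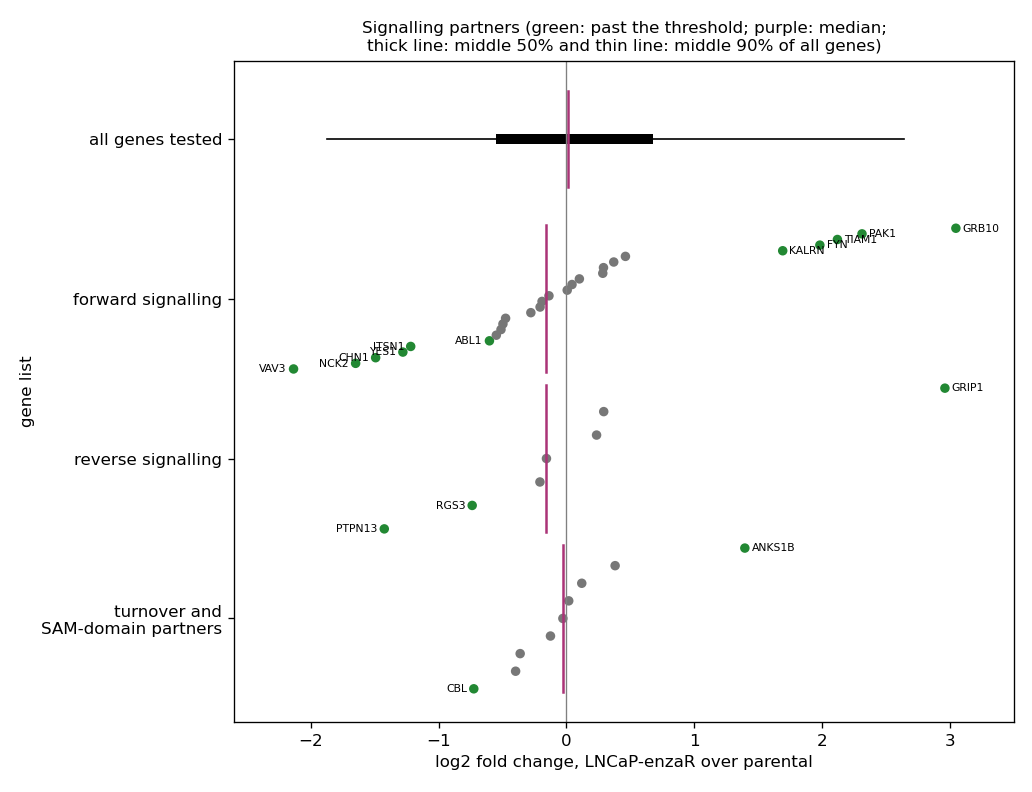
Log2 fold change (x axis) of the tested genes of the 3 partner lists, ordered within each list, with calls in green and named and list medians in purple. The top row gives the middle 50% (-0.51 to 0.64) and the middle 90% (-1.88 to 2.64) of all genes tested; GRB10 and GRIP1 lie beyond the upper end of the latter, and VAV3 beyond its lower end.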

How the data were processed

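Poly(A)-selected RNA of 3 parental LNCaP and 3 LNCaP-enzaR cultures was sequenced as paired reads. Per the study's methods, the authors trimmed reads with Cutadapt, aligned them with STAR to GRCh38 and counted them per gene with featureCounts, and they deposited raw counts. The strand setting and the treatment of reads with several matches are not given in the sources used here.

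From these counts, genes passing edgeR's filterByExpr (19711 of 35554, holding 99.96% of counts) were scaled by TMM and compared with edgeR 4.0.16 (robust quasi-likelihood F-test, R 4.3.3), with Benjamini-Hochberg adjustment over all genes tested. The limits were an adjusted p of 0.05 and a fold of 1.5, and all samples entered 1 fit. The SE is the log2 fold change divided by the root of F. CPM are TMM-scaled, RPKM are CPM per kilobase of union exons, and depth was 77759122 to 98616465 counts. Intervals from the fit cover the spread between libraries. The script was tested on simulated data. DESeq2 1.42.0, other scalings and filters, a replicate block and leaving out each library were alternatives. The genes and lists were chosen with earlier results of these data known. Beyond the family, genes were named by rule: in each partner list the 3 called genes with the smallest p at a mean of at least 5 CPM, and the nearest tested neighbour on each side of each called gene. Others were chosen after their values were seen.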

Additional observations from a re-analysis of the deposited data

How the results depend on the processing

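Of the 10 genes, 8 kept their call under all 15 alternatives. EFNA1 lost its call without parental replicate 1 or LNCaP-enzaR replicate 1 (log2 fold change 0.56 to 0.69 when 1 library was left out), and EFNB1 passed the limit with upper-quartile scaling (0.63). Hence 1 to 2 of the 10 were higher when 1 library was left out, 3 with upper-quartile scaling, 3 with no minimum fold and 1 with a fold of at least 2, while 4 were lower whichever library was left out, 5 with no minimum fold and 3 with a fold of at least 2. Over all genes, 8425 passed the threshold, 8372 to 8517 without 1 library, 13074 with no minimum fold and 5561 with a fold of at least 2. DESeq2 gave 8321, of which 8279 were shared. Upper-quartile scaling shifted all genes by 0.10, and higher calls were then 60.9% of all calls rather than 54.5%. EPHB2 changed sign with DESeq2 (0.0058), RLE size factors (0.0058), upper-quartile scaling (0.097), protein-coding genes only (0.0184), a minimum of 10 counts per library (0.0185) and without mitochondrial genes (3e-04), and ran from -0.030 to 0.031 when 1 library was left out, and the cause was not tested. Replicate numbers did not pair the samples (correlation of same-numbered deviations -0.0652 to -0.00041), and the fit with a replicate block gave 8212 genes, 8174 of them shared, and changed no call of the 10 genes. The 3 counts per library taken as the floor of detection stand for 0.0302 to 0.0382 CPM. The smallest difference that this depth can detect was not determined.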

Other observations

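Antisense genes of the family were low. EPHA5-AS1 held 31 to 60 counts in the parental libraries and at most 6 in those of the resistant line (log2 fold change -4.44, SE 0.781, edgeR adjusted p = 0.000164), beside the decrease of EPHA5, whose exons it overlaps. EPHA2-AS1 held 11 to 21 counts in parental and 16 to 28 in LNCaP-enzaR libraries (log2 fold change 0.55, edgeR adjusted p = 0.342). EPHA1-AS1 held 0 counts in each parental library and at most 7 in LNCaP-enzaR libraries and was not tested, while EPHA1 rose. Without a stated strand setting, reads of a gene and its antisense partner cannot be told apart.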
